A study of Mus musculus with 24 samples.

Results

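The expression of 10 genes was followed, 9 of the pathway that shows peptides on MHC class I molecules and Cd74, the invariant chain of MHC class II. Every probe that the probe annotation gives to H2-K1, H2-D1, B2m, Tap1, Tap2, Tapbp, Psmb8, Psmb9, Psmb10 or Cd74 was taken, by name alone. The 10 genes themselves were chosen with earlier results of these data known. All 10 of them have a probe, among 15161 gene symbols in all. The rule found 12 of the 24611 probes on the array, 1 for each gene except B2m and Psmb10, which have 2 each. The cells were BV-2, an immortalized line of mouse microglia. Untreated cells (Cntr, 6 arrays) were compared with cells given LPS, the lipopolysaccharide of the bacterial outer membrane, at 100 ng/ml for 4 h (6 arrays), the cannabinoid CBD (2 arrays) or THC (4 arrays) at 10 µM for 6 h, or the same dose of CBD or THC for 2 h and then LPS for 4 h with the cannabinoid still present (CBD+LPS, 2 arrays, and THC+LPS, 4 arrays). All groups share the line and the growth medium, and a single immortalized line stands for microglia here. The cannabinoids were added from stocks in ethanol, and the methods do not say whether Cntr or LPS cells received ethanol. The study asked how CBD and THC modify the response of these cells to LPS.

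MHC class I molecules carry short peptides from inside the cell to its surface, where CD8 T cells read them. The proteasome cuts proteins into peptides, and in inflamed cells its catalytic subunits are replaced by Psmb8, Psmb9 and Psmb10, which form the immunoproteasome. Tap1 and Tap2 together pump the peptides into the endoplasmic reticulum, tapasin (Tapbp) holds the empty class I molecule at this pump, and the heavy chain (H2-K1 or H2-D1) leaves for the surface only with B2m, the light chain, and a peptide. Interferons and NF-κB are known to raise many of these genes. Cd74 belongs to the other branch: it fills the groove of MHC class II in the endoplasmic reticulum, guides class II to endosomes, and is also a surface receptor for the cytokine MIF.

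The upstream sequences of the heavy chains and the light chain are shown because the light chain and the heavy chain H2-K1 gave different results on LPS, and the stretch between Psmb9 and Tap1 because these neighbours start from it in opposite directions. RefSeq promoter windows (build GRCm38.p6, 250 bases before to 50 after a start) were matched by symbol for 8 of the 9 class I genes, and none matched for Tap2. The strand of each gene is printed from 5′ to 3′, ending at the base before the start, for H2-K1 (chr17:34000348-34000597, minus strand, the more upstream of its 2 starts), H2-D1 (chr17:35262844-35263093, plus strand) and B2m (chr2:122147437-122147686, plus strand). The stretch between the starts of Psmb9, on the minus strand, and Tap1, on the plus strand, is 225 bases long (chr17:34187331-34187555, printed on the plus strand). Capitals mark matches, on either strand, to the consensus of NF-κB, to the core of the interferon-stimulated response element (GAAA, any 2 bases, GAAA), or to the GC box (GGGCGG).
H2-K1: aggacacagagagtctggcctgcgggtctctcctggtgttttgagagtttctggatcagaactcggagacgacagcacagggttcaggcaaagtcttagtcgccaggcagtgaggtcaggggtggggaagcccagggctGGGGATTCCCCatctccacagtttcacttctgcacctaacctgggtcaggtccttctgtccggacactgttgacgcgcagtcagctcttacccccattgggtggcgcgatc
H2-D1: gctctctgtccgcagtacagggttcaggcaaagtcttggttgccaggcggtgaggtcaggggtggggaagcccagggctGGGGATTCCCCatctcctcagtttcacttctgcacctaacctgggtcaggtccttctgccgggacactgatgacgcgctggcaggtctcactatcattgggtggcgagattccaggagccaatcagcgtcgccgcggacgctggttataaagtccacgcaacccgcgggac
B2m: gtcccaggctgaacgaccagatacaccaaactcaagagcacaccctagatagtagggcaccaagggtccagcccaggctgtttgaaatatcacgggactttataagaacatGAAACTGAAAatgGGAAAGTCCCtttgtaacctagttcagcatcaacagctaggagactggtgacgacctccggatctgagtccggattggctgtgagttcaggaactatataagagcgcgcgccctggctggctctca
Psmb9 to Tap1: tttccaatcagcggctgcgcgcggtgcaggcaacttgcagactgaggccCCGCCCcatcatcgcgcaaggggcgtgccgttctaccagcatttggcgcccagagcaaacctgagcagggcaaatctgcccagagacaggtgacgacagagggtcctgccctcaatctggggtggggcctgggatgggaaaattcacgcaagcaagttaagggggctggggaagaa

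H2-K1 and H2-D1 share a run of 47 identical bases upstream of their starts, and the NF-κB consensus, matched at 2 overlapping positions that span 11 bases, lies inside it. B2m has both an interferon-response core and an NF-κB consensus match. The stretch between Psmb9 and Tap1 held only a GC box among the motifs searched, and the interferon-γ-activated motif (TTC, any 3 bases, GAA) was matched only upstream of Psmb8. Of all 32851 promoter windows, 8.46% held the NF-κB consensus, 3.44% the interferon-response core, 8.3% the interferon-γ-activated motif and 35.7% the GC box. A match describes letters only and is no evidence of binding. Only exact matches to these patterns were counted, so the lack of a match does not show that an element is absent.

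Values are the deposited log2 values, which equal the quantile-normalized log2 of the bead signals with no background subtraction. A probe was detected where its detection p was under 0.05. Detection on all 24 arrays was reached by 36.3% of probes, and arrays correlated with each other at 0.964 to 0.996. The labels give no slide or batch. In the order of the deposited columns, however, the arrays form 3 runs of 8 whose brightest signals differ (34395.1 to 37106.9, 40948.5 to 48790.2 and 38020.6 to 42406.2). Over runs 1, 2 and 3, Cntr has 1, 3 and 2 arrays and LPS 2, 2 and 2. CBD has 0, 1 and 1, CBD+LPS 1, 0 and 1, THC 2, 2 and 0, and THC+LPS 2, 0 and 2. Differences that involve the cannabinoid groups are therefore partly mixed with the run. Values within these runs are given below for LPS and Cntr. Of the 11 microglia and macrophage markers with a probe, 9 were detected on at least 1 array and 5 on all 24. P2ry12 and Sall1 of adult microglia were not detected, nor was any marker of neurons, oligodendrocytes or fibroblasts. Of the 4 T and NK cell markers Klrb1c was detected, on 19 arrays, and of the 4 astrocyte markers Aldh1l1, on 4 arrays. With LPS, 2 of the 11 microglia and macrophage markers were called higher (Cx3cr1, 0.65 in log2, and Sall1, 0.2) and 1 lower (Tmem119, -0.24). Of all probes, 5.63% were called higher and 7.94% lower. Tmem119 was detected on 13 arrays, and Sall1 on none, so its difference is no measured change. Whether each array came from its own culture is not stated, and p-values here reflect only how far these samples scatter, which can be technical.

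With LPS, 6 of the 9 class I genes chosen here and Cd74 rose. Differences come from a linear model fitted to every probe over all 24 arrays (limma), and a gene was called where its p, adjusted over all probes by Benjamini-Hochberg, was under 0.05. Between LPS and Cntr, 7 of the 10 genes were called higher (H2-K1, Tap1, Tap2, Tapbp, Psmb9, Psmb10 and Cd74) and 0 lower, where 5.63% of all probes were called higher and 13.6% in either direction. Among the 10744 probes detected on every array of a group, 11.8% were called higher. Of the 3339 called probes 1386 were higher, and with each array scaled by its median instead 1005 of 4203 were. Over the 9 detected genes the median difference was 0.85 on the log2 scale, against -0.008 over all probes. Psmb8, B2m and H2-D1 were not called.

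**Figure D1:**
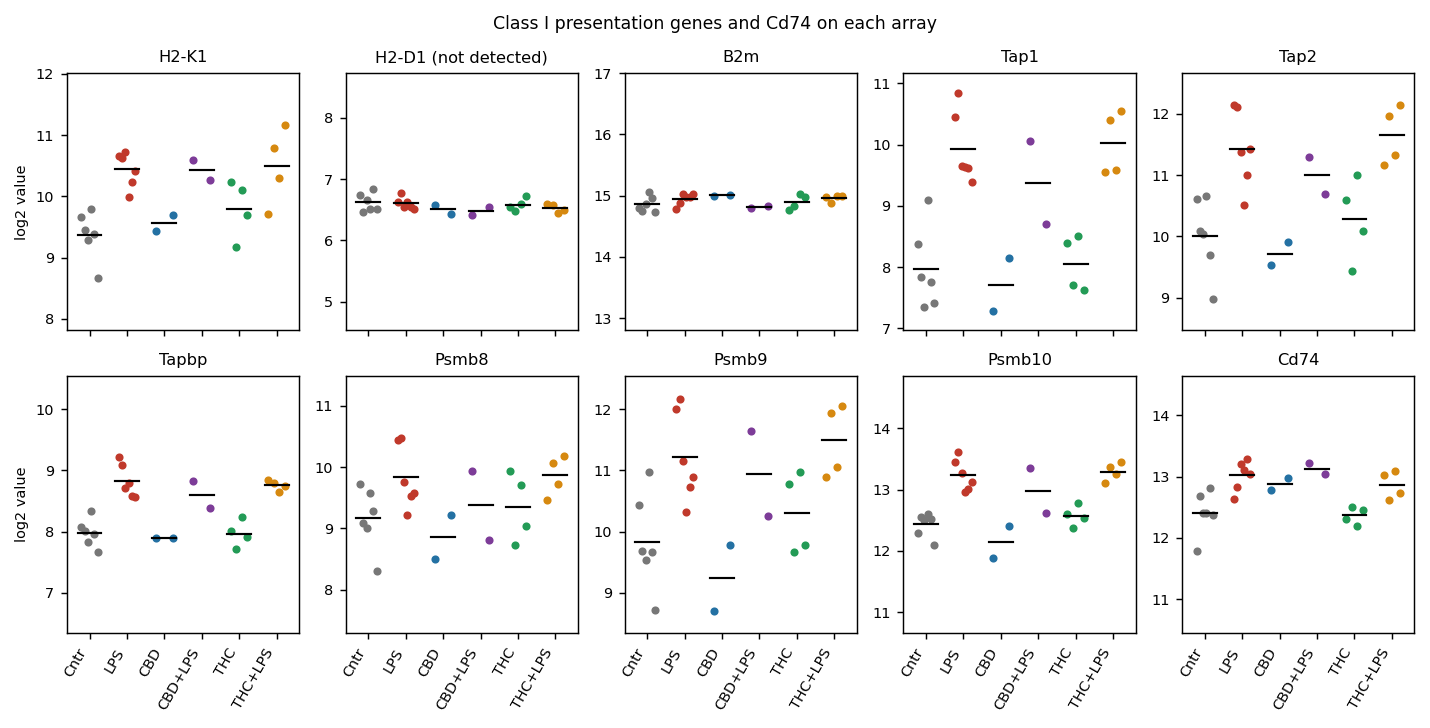
Log2 value (vertical axis, equal span in each panel) of each gene on each of the 24 arrays, by group (horizontal axis), with the group mean as a line. For Tap1 the means of the 3 groups with LPS sit above those of the 3 groups without it, although 1 CBD+LPS array (8.7) is inside the Cntr range, while B2m stays between 14.74 and 15.06 and H2-D1 is not detected on any array.

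Of the heavy chains, H2-K1 had Cntr values from 8.66 through a median of 9.42 to 9.8, and LPS values from 9.99 through a median of 10.52 to 10.73. The groups did not overlap, and the difference was 1.07 ± 0.21 (log2, SE), a 2.09-fold rise with an adjusted p of 0.000793 (limma). Before normalization, the H2-K1 signal of LPS replicate 4 (1045.7) lay below that of Cntr replicate 4 (1063.2). Class I heavy chain genes are near-identical over long stretches, and which of them this probe also read cannot be told from the files. The H2-D1 probe was not detected on any array (detection p from 0.292 to 0.903), so no change of H2-D1 could be measured here. Since these are bulk samples, a change of RNA per cell and a change in the share of cells with the RNA cannot be told apart.

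B2m was one of the brightest probes on every array, ranking between 13 and 81 of 24611. Its Cntr values ran from 14.74 through a median of 14.83 to 15.06 and its LPS values from 14.78 through a median of 14.98 to 15.03, and the groups overlapped almost completely. The difference was 0.08, with a 95% interval from -0.05 to 0.22 (adjusted p = 0.548, limma), which leaves out a rise above 1.16-fold on this scale. The scale ends at 15.31, and the signals of this probe, from 25081.7 to 39136.7, lie near its top. A larger rise of B2m RNA could therefore show only in part, and the interval holds for these values alone. B2m was also the reference gene of the study's PCR. The other B2m probe was not detected on any array (log2 values near 6.6), so a probe that is not detected here does not show that its gene was silent.

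Both transporter subunits rose, Tap1 by the largest estimate of the 10 genes. For Tap1, Cntr values ran from 7.35 through a median of 7.79 to 9.09, and LPS values from 9.39 through a median of 9.64 to 10.85. All 6 LPS arrays lay above the highest Cntr array, and the rise was 1.96 ± 0.31 (log2, SE), or 3.89-fold (adjusted p = 4.24e-05, limma). In the bead signals before normalization, however, LPS replicate 6 (605.2) lay below Cntr replicate 4 (649.2). For Tap2, Cntr values ran from 8.98 through a median of 10.06 to 10.66 and LPS values from 10.51 through a median of 11.4 to 12.14. Only LPS replicate 4 lay within the Cntr range, and the rise was 1.42 ± 0.30, or 2.67-fold (adjusted p = 0.00134, limma). Tapbp, the tapasin that bridges the pump and the heavy chain, rose from a Cntr range of 7.66 to 8.33 (median 7.99) to an LPS range of 8.56 to 9.22 (median 8.76). These groups did not overlap either, and the difference of 0.85 ± 0.12, or 1.81-fold, had the smallest adjusted p of the 10 genes (7.72e-06, limma). With background correction (neqc) it was 0.54, still called. Before normalization, the Tapbp signal of LPS replicate 6 (347.6) lay below that of Cntr replicate 4 (372.1).

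Of the immunoproteasome subunits, Psmb9 had Cntr values from 8.72 through a median of 9.67 to 10.98 and LPS values from 10.32 through a median of 11.03 to 12.17. The ranges overlapped, with 3 of 6 LPS arrays above every Cntr array, and the rise was 1.38 ± 0.37 (log2, SE), or 2.6-fold (adjusted p = 0.0114, limma). Psmb10 separated the groups completely, with Cntr values from 12.09 to 12.61 (median 12.52) and LPS values from 12.96 to 13.62 (median 13.2). Its rise was 0.81 ± 0.13, or 1.75-fold (adjusted p = 5.47e-05, limma), and its other probe gave 0.79. Psmb8 had Cntr values from 8.3 through a median of 9.18 to 9.73 and LPS values from 9.21 through a median of 9.67 to 10.47. Only 3 of 6 LPS arrays lay above the Cntr range, and the difference of 0.67 ± 0.26 was not called (adjusted p = 0.103, limma).

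Each inducible subunit takes the place of a constitutive one in the proteasome, Psmb8 of Psmb5, Psmb9 of Psmb6 and Psmb10 of Psmb7. None of the 3 constitutive subunits was called between LPS and Cntr (log2 differences of -0.09, 0.03 and -0.05). The difference between the 2 subunits of a pair was therefore also taken on each array. For Psmb10 minus Psmb7 it lay between -2.02 and -1.34 in Cntr and between -1.21 and -0.22 in LPS, with no overlap. For Psmb9 minus Psmb6 the mean moved up by 1.35 with LPS, and for Psmb8 minus Psmb5 by 0.76, and both pairs of ranges overlapped. Only shifts between groups are read here, since 2 probes differ in brightness for reasons other than RNA.

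**Figure D2:**
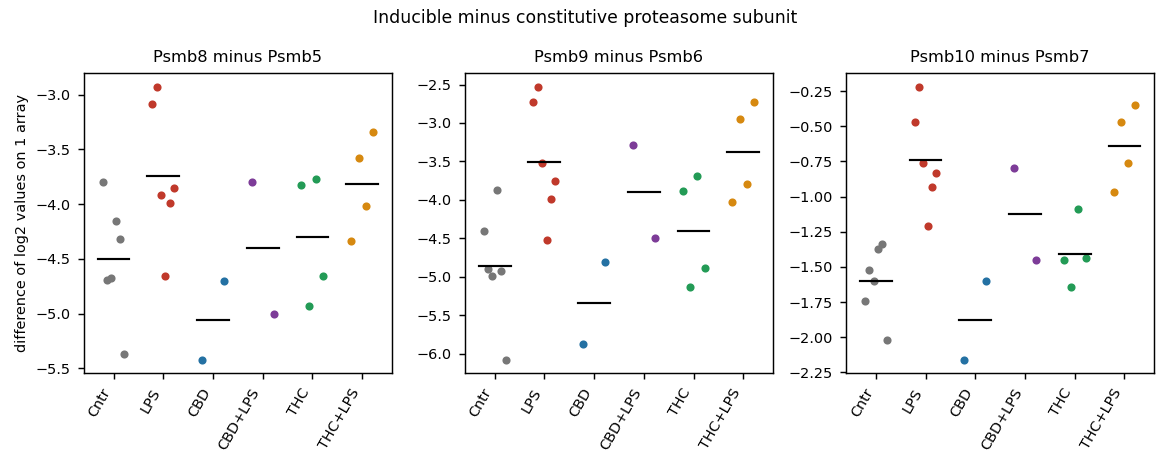
Difference of log2 values between an inducible subunit and the constitutive subunit it replaces (vertical axis, a panel for each pair), on each array, by group (horizontal axis), with the group mean as a line. For Psmb10 minus Psmb7 all 6 LPS arrays (-1.21 to -0.22) lie above all 6 Cntr arrays (-2.02 to -1.34), and the 2 CBD+LPS arrays lie apart from each other in all 3 panels.

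Cd74 had Cntr values from 11.79 through a median of 12.41 to 12.81 and LPS values from 12.63 through a median of 13.08 to 13.29. Of the 6 LPS arrays, 5 lay above every Cntr array, and the rise was 0.61 ± 0.14 (log2, SE), or 1.53-fold (adjusted p = 0.0021, limma). Of 12 class II and endosomal loading genes with a probe, 0 were called higher and 2 lower, where 7.94% of all probes were called lower: Ifi30, the lysosomal thiol reductase, by 0.62 (log2 fall; adjusted p = 0.000357), and Lgmn, the endosomal legumain protease, by 0.49 (adjusted p = 2.82e-05). The class II chains H2-Aa, H2-Ab1 and H2-Eb1 and the class II transactivator Ciita were not detected on any array, whereas Cd74 was detected on all 24. Of the 12 genes, 7 were detected on at least 1 array, among them H2-DMa (22 arrays) and H2-DMb1, H2-DMb2 and H2-Oa (24 each). A probe that is not detected does not show that its gene was silent. Of the markers of B cells and dendritic cells, which also carry Cd74, 2 of 4 and 1 of 5 were detected on any array. The dendritic cell marker was Zbtb46, detected on all 24 arrays (mean 8 in Cntr and 7.62 in LPS) and called lower with LPS. No B cell marker was detected on all arrays. The mean level of the list lay between 6.77 and 6.97 in Cntr and 6.76 and 6.92 in LPS for B cells. For dendritic cells it lay between 6.83 and 6.93 in Cntr and 6.73 and 6.91 in LPS.

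Other genes of the class I pathway moved in part. Beside the counts below, 5.63% of all probes were called higher with LPS and 7.94% lower. Of 18 further class I-like heavy chain genes with a probe, 4 were called higher and 1 lower, and only 10 were detected on any array. Among the called genes, H2-Q8 (0.75 in log2, adjusted p = 2.92e-06, limma), H2-Q2 (0.73, adjusted p = 0.0185) and H2-T10 (0.69, adjusted p = 0.0145) had the largest rises. H2-Q8 was detected on 17 of the 24 arrays. H2-T23 had a larger estimate (1.02) but was not called (adjusted p = 0.0686, limma). All of them have the same limit on near-identical sequences. The other gene called higher was H2-T24 (0.31), and the gene called lower was Mr1, which presents vitamin metabolites, fell by 0.30 and was detected on 1 array only. The median difference of the list was 0.07. Of 9 genes of peptide loading and trimming, Tapbpl, a tapasin-related peptide editor, was called higher (1.11, adjusted p = 0.00015) and 0 lower. The probes of the chaperones Calr and Canx were not detected, though every cell uses these genes. Of 5 proteasome activator and assembly genes, Psme1, a subunit of the PA28 activator, was called higher (0.44, adjusted p = 0.0168).

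Of 11 regulators with a probe, 3 were called higher and 1 lower, where 5.63% of all probes were called higher and 7.94% lower. Ifnb1, interferon beta, rose by 3.47 (adjusted p = 1.41e-08), Irf1, an interferon-induced transcription factor, by 2.77 (adjusted p = 6.73e-10) and Nlrc5, the transactivator of class I genes, by 1.41 (adjusted p = 6.49e-08). The gene called lower was Rfxap, a subunit of the RFX complex that binds MHC promoters, which fell by 0.43 (adjusted p = 0.00031). Ifnb1 was detected on 13 of the 24 arrays, so its fitted difference is no measured fold.

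The LPS differences were compared within the runs of adjacent columns. In each of the 3 runs the LPS mean was above the Cntr mean for all 9 detected genes. For Tap1 the difference was 2.27, 1.55 and 1.92 in the runs taken in order, for Psmb9 1.64, 0.68 and 1.62, and for Cd74 0.94, 0.66 and 0.58. The first run has only 1 Cntr array. The 2 LPS arrays of the first run had the highest LPS values of Tap1 (10.45 and 10.85) and the lowest of Cd74 (12.63 and 12.83). All 7 calls held in each of 19 refits, which included the run of columns as a term, background correction and each Cntr or LPS array left out.

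Arrays of 1 group differed from each other in a shared way. After the group mean was taken out, the 21 pairs among H2-K1, Tap1, Tap2, Tapbp, Psmb8, Psmb9 and Psmb10 had correlations from 0.53 to 0.96 over the 24 arrays (median 0.81). Cntr replicate 4 was the highest Cntr array for Tap1 (9.09) and Psmb9 (10.98), and Cntr replicate 6 the lowest for Psmb9 (8.72), Tap2 (8.98) and Psmb8 (8.3). Cd74 deviated the other way: its correlation with each of these 7 genes was below 0, from -0.57 (Tap2) to -0.09 (Psmb10), and it was 0.38 with B2m. The correlations of B2m ran from -0.08 to 0.38. The arrays also share normalization, and the first component of the residuals of 10744 probes held 35.7% of their spread. Its correlation with the deviations, without sign, was 0.8 for Tap2, 0.79 for Cd74, 0.77 for Psmb9 and 0.76 for Tap1, and 0.13 for B2m; its part in the results was not tested.

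**Figure D3:**
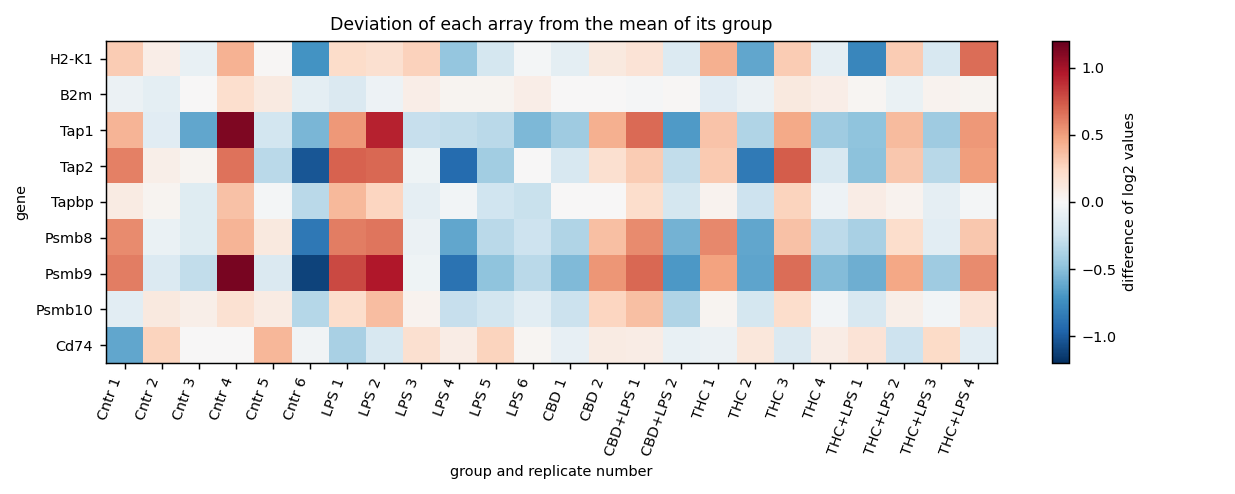
Deviation of each array's log2 value from the mean of its group (colour scale), for the 9 detected genes (rows) and the 24 arrays (columns, by group and replicate number). Columns of 1 colour from Tap1 to Psmb9, as for LPS replicates 1 and 2 (high) and Cntr replicate 6 (low), show genes that deviate together, and the B2m row is near 0 throughout.

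The profiles most like each gene over all 24 arrays were searched among 9093 detected probes with a symbol. Closest to Tap1 were Irgm1 (Pearson r = 0.985), Oasl2 (0.982) and Igtp (0.98). Closest to Psmb9 were Tap2 and Epsti1 (both 0.962) and Irf7 (0.957), and closest to H2-K1 were Tap2 (0.927), Uba7 (0.924) and Idnk (0.905). Psmb9, Tap1, Psmb8 and Tap2 follow each other in the RefSeq annotation with no other gene between them. For Cd74 the closest, Hip1r, reached 0.85, and for B2m, Gnrh1 reached 0.663. These values describe arrays that share treatments, and carry no test.

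CBD or THC alone changed none of the 10 genes past the threshold. Between CBD and Cntr 0 were called (limma, and 0 with neqc), where 2.83% of all probes were called, and 1 had an unadjusted p under 0.05. This was Cd74, with CBD values of 12.78 and 12.97 against a Cntr median of 12.41 and highest value of 12.81, a difference of 0.47 ± 0.19 (adjusted p = 0.25, limma). The other 8 detected genes had CBD differences between -0.59 (Psmb9) and 0.19 (H2-K1). Between THC and Cntr 0 were called (limma, and 0 with neqc), 0 had an unadjusted p under 0.05, and 0.00406% of all probes were called. The THC values of H2-K1 (from 9.18 to 10.23) gave a difference of 0.42 with a 95% interval from -0.07 to 0.92, and those of Cd74 (12.3, 12.51, 12.2 and 12.46) a difference of -0.04 with an interval from -0.35 to 0.27. In the 6 further lists of pathway genes and regulators, 1 gene was called on CBD alone, Psme3, a proteasome activator subunit of the nucleus, at 0.677 of its Cntr level, and 0 on THC alone. Of the 11 microglia and macrophage markers, 1 was called lower on CBD (C1qa, a complement subunit, which fell by 1.71 in log2, adjusted p = 0.000942); its part in the other values was not tested.

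With THC before LPS, 6 of the 9 class I genes chosen here stood above Cntr. Between THC+LPS and Cntr 6 genes were called higher and 0 lower, where 5.12% of all probes were called higher and 12% in either direction; these comparisons share the Cntr arrays with the others. Of the 2965 called probes 1261 were higher, and under median scaling 926 of 3604. Tap1 values ran from 9.55 to 10.55, all 4 above the Cntr range, a difference of 2.05 ± 0.35 (adjusted p = 0.000125, limma). Tap2 differed by 1.64, Psmb9 by 1.65, H2-K1 by 1.11, Psmb10 by 0.86 and Tapbp by 0.78. Psmb9 had an adjusted p of 0.00777 (limma), with 3 of 4 arrays above the Cntr range. Cd74 values were 13.02, 12.61, 13.09 and 12.73, 2 of them above the Cntr range, and the difference of 0.45 ± 0.15 was just not called (adjusted p = 0.0538, limma). It was called in 7 of 17 refits, 3 of them without an array (Cntr replicate 2, Cntr replicate 5 or THC+LPS replicate 2), and not in the other 10, and over all refits it lay between 0.32 and 0.54 with an adjusted p between 0.0204 and 0.27.

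With CBD before LPS, 5 genes were called higher than Cntr and 0 lower, where 6.06% of all probes were called higher and 13.3% in either direction. They were H2-K1 (1.06 in log2), Tap1 (1.41), Tapbp (0.63), Psmb10 (0.55) and Cd74 (0.72). The count was 2 with neqc, and 3 with median scaling, with the run of columns as a term or with only the compared groups. The 2 arrays differed from each other. Replicate 1 lies in run 1 of the columns and replicate 2 in run 3, so their difference cannot be told apart from the run. Tap1 was at 10.06 on replicate 1 and at 8.7 on replicate 2, inside the Cntr range; Psmb9 was at 11.64 and 10.26, and Psmb10 at 13.35 and 12.62. Cd74 was alike on both, at 13.22 and 13.04. Without CBD+LPS replicate 1 no gene was called: Tap1 was at 0.73 (adjusted p = 0.516), Psmb10 at 0.18 (0.732), Tapbp at 0.41 (0.272), H2-K1 at 0.9 (0.182) and Cd74 at 0.63 (0.124). Without replicate 2 there were 3 calls. In both refits 1 CBD+LPS array is left, and it is assumed to vary like the other groups. Leaving out Cntr replicate 2, 3, 5 or 6 also left 3 calls.

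**Figure D4:**
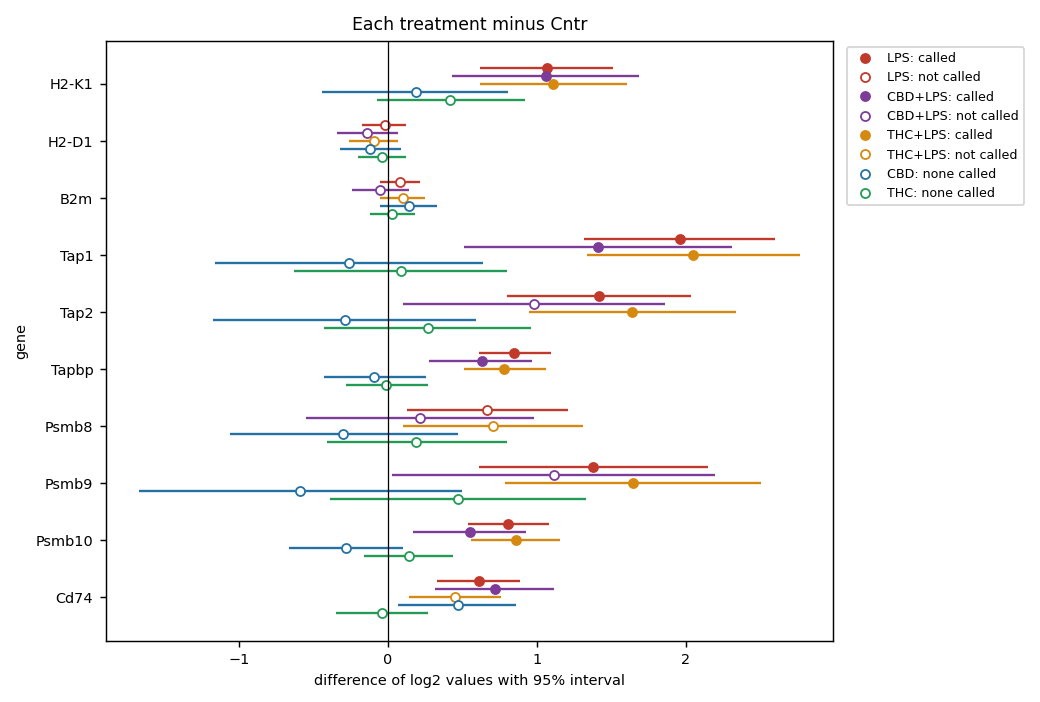
Difference of log2 values from Cntr (horizontal axis, point, with its 95% interval as a line) for each gene (vertical axis) and treatment; filled points passed an adjusted p of 0.05. The intervals of LPS and THC+LPS lie above 0 for 8 of the 10 genes, those of CBD and THC alone reach or cross 0 except Cd74 on CBD (0.07 to 0.86, not called).

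Set against LPS alone, neither cannabinoid moved a gene past the threshold. Between CBD+LPS and LPS 0 of 10 genes were called (limma, and 0 with neqc) and 0 had an unadjusted p under 0.05, where 3.9% of all probes were called. The estimates lay below 0 for 8 of the 9 detected genes, with a median of -0.26, and the lowest was Tap1, at -0.55 with a 95% interval from -1.45 to 0.35. The interval therefore includes both a fall to 0.365 of the LPS level and a 1.27-fold rise. Cd74 had 0.11 (-0.29 to 0.5). In the lists, Ifnb1 was called lower in CBD+LPS than in LPS (adjusted p = 0.0292), as were the markers C1qa and Cx3cr1 (adjusted p of 0.00374 and 0.000833). Between THC+LPS and LPS 0 genes were called (limma, and 0 with neqc), 0 had an unadjusted p under 0.05, and 0% of all probes were called. Estimates ran from -0.16 (Cd74, interval -0.47 to 0.15) to 0.28 (Psmb9, interval -0.58 to 1.13), with a median of 0.05. For the interactions, which ask whether the LPS difference changed with a cannabinoid, 0 genes were called for CBD and 0 for THC (limma, and 0 with neqc), 0 had an unadjusted p under 0.05, and 0% of all probes were called. The estimate furthest from 0 was -0.37 for H2-K1 with THC (interval -1.07 to 0.33). For CBD, with 2 arrays in each CBD group, the interval was -1.57 to 0.98 for Tap1 and -1.21 to 1.87 for Psmb9. B2m with CBD stood at -0.27 (interval -0.54 to 0).

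CBD and THC are isomers that differ in 1 ring: it is closed through an oxygen in THC, whereas in CBD that oxygen is a free phenolic hydroxyl. They were compared in 2 pairs of groups, both at 10 µM for 6 h. Without LPS, 0 of 10 genes were called between CBD and THC (limma, and 0 with neqc), where 0.784% of all probes were called, and 2 had an unadjusted p under 0.05. Cd74 was 0.51 ± 0.20 higher with CBD, and its CBD values (12.78 and 12.97) lay above all 4 THC values (adjusted p = 0.327, limma). Psmb10 was lower with CBD (11.89 and 12.41) than with THC (12.61, 12.37, 12.78 and 12.54) by a log2 difference of -0.42 (adjusted p = 0.452), with overlap. Its other probe gave -0.47 (adjusted p = 0.302, limma), with no overlap. Psmb9 had the estimate furthest from 0, -1.06, with a 95% interval from -2.21 to 0.1. With LPS, 0 genes were called (limma, and 0 with neqc), 0 had an unadjusted p under 0.05, and 0.922% of all probes were called. The estimate furthest from 0 was Tap2, at -0.66 (interval -1.59 to 0.27), and Tap1 differed by -0.64 (interval -1.6 to 0.31), H2-K1 by -0.06 (-0.72 to 0.61) and Cd74 by 0.27 (-0.15 to 0.69). With 2 CBD arrays in each comparison, these intervals include a level lower by 2-fold with CBD for Tap1, Tap2, Psmb8 and Psmb9 in both pairs, and they do not show that the compounds act alike.

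**Figure D5:**
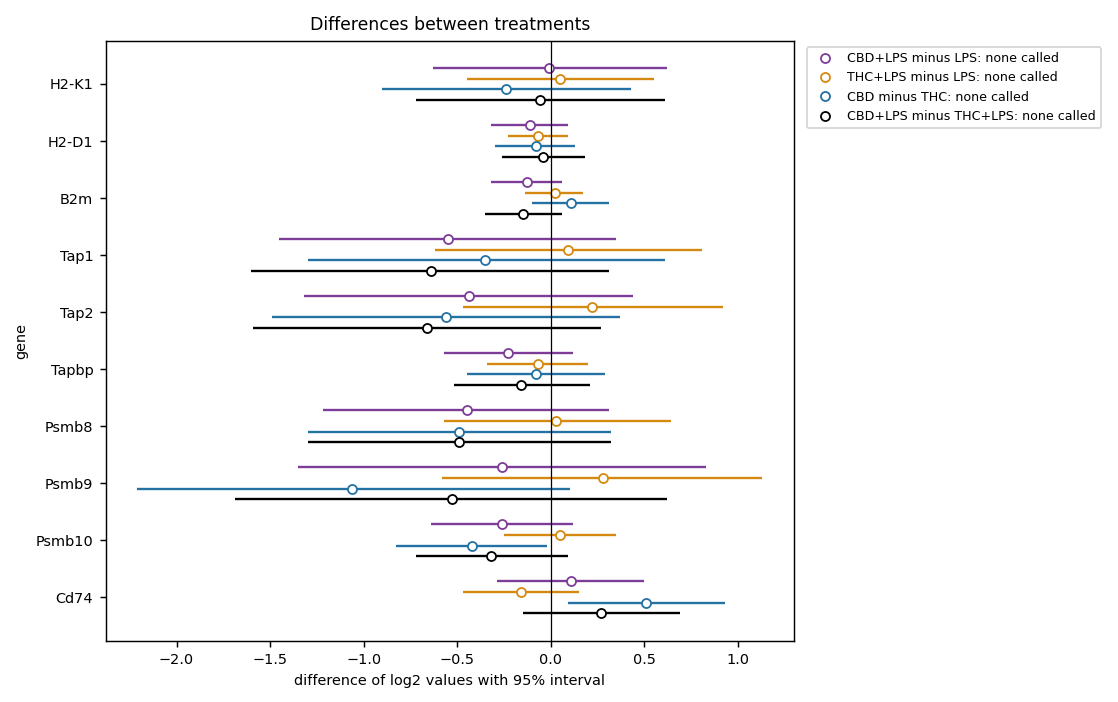
Difference of log2 values (horizontal axis, point, with its 95% interval as a line) for each gene (vertical axis) in 4 comparisons between treatments. No point is filled, since none passed an adjusted p of 0.05, and for CBD+LPS minus LPS 8 of the 9 detected genes lie below 0 with intervals that reach above it.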

How the data were processed

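RNA of 24 BV-2 samples was hybridized to Illumina MouseRef-8 bead arrays. The authors deposited unnormalized bead signals (intensity) with a detection p-value for each probe, and a table of log2 values. The deposited log2 values equalled the quantile-normalized log2 of the deposited intensity, with no background correction (largest difference 5e-09). Each array was placed in its group by its label; doses and times are from the methods. Probes were named through the platform annotation, which gives 1 symbol to 19852 probes and none to 4759. The log2 values of all probes and groups were fitted with limma 3.58.1 in R 4.3.3, with a mean for each group, no covariates, two-sided moderated tests and Benjamini-Hochberg adjustment over 24611 probes. The script was tested on simulated data. Figures used Python 3.11.15 and matplotlib 3.10.9.

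A gene stands for its brightest probe. Values of the other probe are given for B2m and Psmb10 in some comparisons. For further genes with several probes, such as Irf1 with 4, the other probes are not given. Further genes were counted by role, and at most 3 called genes of each role, those with the largest LPS difference, were named. Rfxap, Psme3, H2-T23, H2-T24, Mr1, C1qa, Cx3cr1, Sall1, Tmem119, Klrb1c, Aldh1l1, Zbtb46, H2-DMa, H2-DMb1, H2-DMb2 and H2-Oa were chosen after their values were seen. So were the genes named only as not detected. The genes and lists were chosen with earlier results of these data known, and the motif search was added after values were known. Alternatives were neqc background correction (offset 16), median scaling, only detected probes, an intensity-dependent prior, the replicate number as a block, only the compared groups, the study's threshold (unadjusted p of 0.005), each array left out and, added later, the run of columns. The number of arrays limits the precision.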

Additional observations from a re-analysis of the deposited data

Results flagged for a closer look

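In 36 groups of 4 to 6 arrays, over the 9 detected genes, 1 held an array far from the others, and chance alone picks out about 1 group in 20. B2m was at 14.88 in THC+LPS replicate 2, where the nearest array of the group had 14.98 and the farthest 15.0, so that the gap was 0.842 of the range over 4 arrays. B2m was not called in any comparison.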

How the results depend on the processing

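For LPS against Cntr, the 7 calls held in each of 19 refits, with Tap1 between 1.61 and 2.19 and Psmb9 between 1.16 and 1.61 (highest adjusted p 0.0383, limma). For THC+LPS against Cntr, 5 of the 6 calls held in each of 17 refits, and Psmb9 was lost with the replicate number as a block (1.39, adjusted p = 0.0511). Cd74 was called there with the replicate block (0.53, adjusted p = 0.0218), the run of columns (0.52, 0.0267), only detected probes (0.0326) or an intensity-dependent prior (0.0494); the cause was not tested. The 5 calls of CBD+LPS against Cntr became 2 with neqc, 3 with median scaling, 1 with the replicate block, 3 with the run of columns, 3 with only the compared groups and 0 to 5 with an array left out; the last 2 rest on fewer samples, and for the others the cause was not tested. The counts of 0 in the other comparisons stayed at 0. Samples with the same replicate number did not deviate together throughout (r over 0.1 in 16 of 44 pairs, and in 3 of 6 between Cntr and LPS). Between Cntr and LPS, r was 0.71, 0.61 and 0.55 for replicates 1, 3 and 5. For replicates 2, 4 and 6 it was -0.27, -0.09 and 0.1. The numbers were therefore not taken as pairs. Of the estimates, 80 were never called, and 130 of their refits, over 46 estimates between -0.64 and 0.33, had the opposite sign. The run of columns was chosen after seeing the data. With the other probe, the value was B2m -0.01 (LPS against Cntr), B2m -0.03 (CBD against Cntr), B2m -0.14 (CBD against THC), B2m 0 (interaction of CBD and LPS). With neqc, the value was Tap1 0 (THC against Cntr). With the replicate number as a block, the value was Tap1 -0.12 and Cd74 0.04 (THC against Cntr), B2m 0.04 and Psmb8 -0.05 (CBD+LPS against Cntr), H2-K1 -0.07 and Tap1 -0.11 and Psmb8 -0.13 and Psmb10 -0.02 (THC+LPS against LPS). With the run of columns as a term, the value was Tap1 -0.11 and Cd74 0.05 (THC against Cntr), B2m 0.01 (CBD+LPS against Cntr), H2-K1 0.02 (CBD+LPS against LPS), Psmb8 -0.03 (THC+LPS against LPS), Tapbp 0.06 (CBD against THC), Psmb10 0 (interaction of CBD and LPS), Tap2 0.12 and Tapbp 0.06 (interaction of THC and LPS). With median scaling, the value was B2m -0.05 (THC+LPS against Cntr), H2-K1 0.11 (CBD+LPS against LPS), B2m -0.18 and Psmb10 -0.01 (THC+LPS against LPS), H2-K1 0.05 (CBD+LPS against THC+LPS), Tapbp 0.05 and Psmb8 0.02 (interaction of CBD and LPS), Tapbp 0.04 (interaction of THC and LPS). With an array left out, the estimates that changed sign gave these ranges. For CBD against Cntr they ran from -0.69 to 0.17 (Tap1), from -0.66 to 0.06 (Psmb8). For THC against Cntr they ran from -0.01 to 0.08 (B2m), from -0.06 to 0.31 (Tap1), from -0.1 to 0.08 (Tapbp), from 0 to 0.4 (Psmb8), from -0.17 to 0.04 (Cd74). For CBD+LPS against Cntr they ran from -0.35 to 0.78 (Psmb8). For CBD+LPS against LPS they ran from -0.17 to 0.15 (H2-K1), from -1.23 to 0.13 (Tap1), from -1.02 to 0.11 (Psmb8), from -0.95 to 0.43 (Psmb9), from -0.63 to 0.1 (Psmb10). For THC+LPS against LPS they ran from -0.18 to 0.31 (H2-K1), from -0.02 to 0.04 (B2m), from -0.08 to 0.28 (Tap1), from -0.13 to 0.01 (Tapbp), from -0.09 to 0.17 (Psmb8), from 0 to 0.13 (Psmb10). For CBD against THC they ran from -0.78 to 0.09 (Tap1), from -0.16 to 0.01 (Tapbp). For CBD+LPS against THC+LPS they ran from -0.31 to 0.17 (H2-K1), from -1.32 to 0.03 (Tap1), from -0.37 to 0.06 (Tapbp), from -1.05 to 0.08 (Psmb8), from -1.23 to 0.16 (Psmb9), from -0.68 to 0.05 (Psmb10). For interaction of CBD and LPS they ran from -0.97 to 0.39 (Tap1), from -0.44 to 0.15 (Tap2), from -0.35 to 0.07 (Tapbp), from -0.72 to 0.41 (Psmb8), from -0.36 to 1.02 (Psmb9), from -0.35 to 0.38 (Psmb10). For interaction of THC and LPS they ran from -0.06 to 0.03 (B2m), from -0.22 to 0.19 (Tap1), from -0.33 to 0.2 (Tap2), from -0.15 to 0.03 (Tapbp), from -0.36 to 0.03 (Psmb8), from -0.42 to 0.03 (Psmb9), from -0.2 to 0.01 (Cd74). Precision is limited by 2 arrays in each CBD group, and B2m lies near the top of the scale.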
